A study of Mus musculus with 9 samples.

Results

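Voltage-gated potassium channel genes (Kv genes) were followed in RNA from the mouse medial prefrontal cortex (mPFC). They were taken from the deposited expression table by symbol, as every gene whose name is Kcn, then a, b, c, d, f, g, h, q, s or v, then a number. This matched 40 genes of 35125 rows with a symbol, and 36 of the 40 were kept because they reached 0.2 FPKM in at least 3 of the 9 libraries, the limit that kept 15250 genes in all. FPKM divides the fragments of a gene by its transcript length and by the total mapped in the library. It is a level per length that can be set side by side between genes. The symbol rule itself reads no difference between groups, but the family was taken up with earlier results of these data known, Kcng1 among them.

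The libraries fell into 3 groups of 3: unstressed mice (control), mice of a chronic unpredictable stress model (CUS), and mice of a running model, described in the series as exercise in stressed mice. All 9 carried the terms 4 week and week 8, whose meaning is not stated, and no strain, age, genotype or sex is given in the labels. The labels do not say that each library came from another animal, so each p-value refers to the scatter of the libraries alone, part of which could be technical. Replicate numbers follow the order of listing and pair nothing. The questions were whether transcripts of these channels differ with stress and, under stress, with running.

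Kv channels open when the membrane is depolarised and let potassium leave the cell, which repolarises the action potential and limits repetitive firing. Each channel is an assembly of 4 subunits around a common pore. Subunits of the Kcna (Shaker), Kcnb (Shab), Kcnc (Shaw), Kcnd (Shal), Kcnh (ether-a-go-go) and Kcnq (M current) subfamilies form channels by themselves. Those of the Kcnf, Kcng, Kcns and Kcnv subfamilies are called silent, because they reach the surface and conduct only in combination with a Kcnb subunit. In cortical neurons, Kcna channels lie along the axon and its initial segment, Kcnb channels form clusters on the cell body and proximal dendrites, Kcnc channels allow fast spiking, and Kcnd channels carry the transient current of dendrites. Of the kept genes, 27 belonged to the pore-forming and 9 to the silent subfamilies.

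The coding sequences show what the family shares and where the silent subunits part from the Kcna, Kcnb, Kcnc and Kcnd subunits. In all 36 kept genes the coding sequence (GENCODE M21, GRCm38) held in frame the codons of the potassium selectivity filter, the narrowest part of the pore. These stretches are shown for a silent subunit, Kcng1, and for 2 pore-forming subunits, Kcna2 and Kcnh1, with the filter codons in capitals.

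Kcng1: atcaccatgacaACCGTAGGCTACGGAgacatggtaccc
Kcna2: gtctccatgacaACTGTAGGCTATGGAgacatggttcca
Kcnh1: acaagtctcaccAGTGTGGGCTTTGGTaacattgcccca

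The aromatic codon of the filter was one for tyrosine (TAC or TAT above) in every kept gene outside the Kcnh subfamily, and one for phenylalanine (TTT in Kcnh1) in all 7 kept Kcnh genes. Further along, in the last membrane helix, lies a proline codon, any codon, then another proline codon, a motif that forms a hinge of the gate. At 29 codons after the filter glycine all 15 kept genes of the Kcna, Kcnb, Kcnc and Kcnd subfamilies held this motif, against 0 of the 9 silent genes and 0 of the 12 kept Kcnh and Kcnq genes. The capitals below mark the 3 codons at that position.

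Kcna2: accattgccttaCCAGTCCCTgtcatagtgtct
Kcng1: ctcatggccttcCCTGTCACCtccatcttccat
Kcnf1: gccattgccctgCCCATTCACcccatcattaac
Kcns1: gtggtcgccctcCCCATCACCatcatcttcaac
Kcnv1: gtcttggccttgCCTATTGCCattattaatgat
Kcnh1: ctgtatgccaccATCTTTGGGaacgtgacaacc

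The silent subunits shown keep the first proline codon and lack the last. The kept Kcnq genes, which are pore-forming, do the same, so this does not mark silent subunits alone. Kcnh1 has neither.

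Before the members, the libraries themselves need a word. FPKM values summed to 423257 in CUS replicate 3 and to between 370441 and 393663 in the other 8. The Kv genes were lowest in that library, at a mean of -0.17 against each gene's own average (log2), where the other 8 lay between -0.06 and 0.10. Control replicate 3 had a summed level of 5 choroid plexus markers of 215.72 FPKM, against 6.74 to 40.86 in the others, and of 5 oligodendrocyte markers of 1063.57, against 417.32 to 627.65. Excitatory neuron markers were high in all 9: Slc17a7 lay between 695.72 and 767.95 FPKM and Camk2a between 823.83 and 1028.83. The summed 5 excitatory markers were 1724.8 to 1789.05 FPKM in controls, 1687.69 to 1753.49 in CUS and 1766.25 to 1856.03 in running, so that the running and CUS ranges did not overlap. Camk2a, the most abundant, had means of 850 FPKM in CUS and 979 in running. Of the 5 markers, 2 were above 0 and 3 below 0 in running against CUS, with a median of -0.04. The sums of 7 inhibitory markers were 693.88 to 867.41, 777.35 to 874.74 and 674.53 to 731.45 FPKM, of which Sst alone made up 440.88 to 652.58. By gene, 4 of the 7 were above 0 in running against CUS, with a median of 0.03. Of 5 astrocyte markers, 5 were below 0 in CUS against control (median -0.16) and 5 above 0 in running against CUS (median 0.09). Their sums were 240.54 to 274.38 FPKM in controls, 212.18 to 252.05 in CUS and 222.99 to 270.32 in running. The sums of 3 oligodendrocyte precursor markers were 52.73 to 61.50 FPKM in controls, 45.58 to 52.11 in CUS and 45.39 to 47.69 in running. All 5 oligodendrocyte markers were below 0 in CUS against control (median -0.56) and in running against control (median -0.46), both of which include control replicate 3. In running against CUS 4 of them were above 0. Of 5 microglia markers, 5 were above 0 in CUS against control (median 0.05) and 5 below 0 in running against CUS (median -0.06). Of 4 endothelium markers, 3 were below 0 in each of these (medians -0.23 and -0.11). None of the marker genes was at 0 in all libraries. The part of any of these in the Kv values was not tested, and in bulk tissue fewer cells of a type and less RNA per cell cannot be told apart.

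Levels spanned a wide range between members and, for most genes, a narrow one between libraries. Some varied more, such as Kcna3 (0.70 to 2.28 FPKM) and Kcnc1 (20.43 to 33.43). Kcnh3, a Kcnh channel of the forebrain, had a mean over the 9 libraries of 56.6 FPKM. Kcnf1 had 38.1, Kcnc4 35.0 and Kcnc1 30.3. The lowest kept gene was Kcnq1, known from heart and inner ear, at 0.17 to 0.33 FPKM, just inside the limit. The 4 that were not kept were Kcna7, with 0.22 FPKM in control replicate 1 and at most 0.06 elsewhere, Kcna10 (at most 0.16), Kcnh8 (at most 0.08) and Kcnv2 (at most 0.08). The retina-linked Kcnv2 and the muscle-linked Kcna7 are thus listed near 0 in this tissue.

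**Figure D1:**
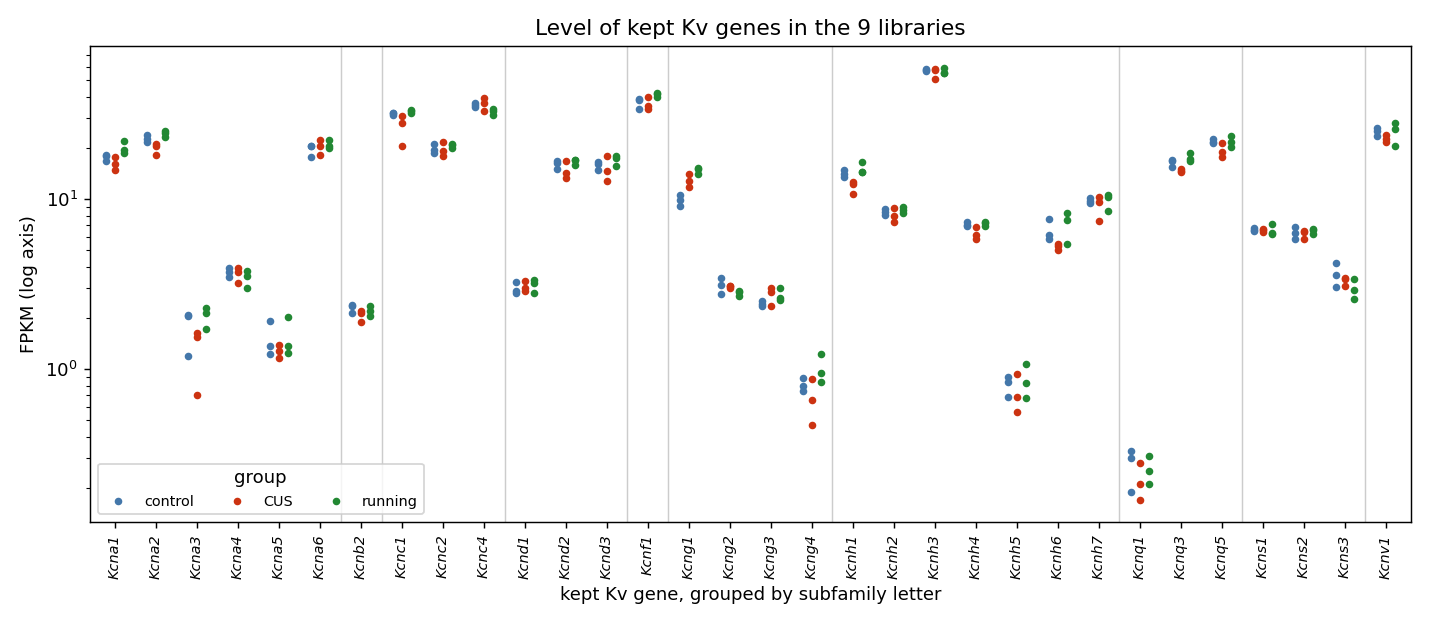
FPKM (log axis) of kept Kv genes, grouped along the x axis by subfamily letter; each point is a library, coloured by group. Levels run from 0.17 FPKM for Kcnq1 to 59.33 for Kcnh3, and within most genes the 9 points lie close together.

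By subfamily, the summed level of the 7 Kcnh genes was 104 ± 2.04 FPKM in controls and that of the 3 Kcnd genes 34.9 ± 1.80 (SD, n = 3 each). The 6 Kcna genes summed to 66.9 ± 3.39 FPKM and the 4 Kcng genes to 16.2 ± 0.495. All 36 together summed to 557.31, 561.20 and 532.42 FPKM in the controls, 531.03, 535.05 and 469.96 in CUS, and 580.11, 573.46 and 590.76 in running. The lowest sum was that of CUS replicate 3. The running libraries lay above both other groups, and CUS replicate 2 lay just above the lowest control. The 27 pore-forming genes summed to 443.63 to 463.37 FPKM in controls, 375.33 to 438.95 in CUS and 473.12 to 485.40 in running, with no overlap between any pair of groups. The 9 silent genes summed to 88.79 to 97.83, 92.08 to 96.39 and 97.05 to 106.99 FPKM, ranges that overlapped for control with both other groups.

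**Figure D2:**
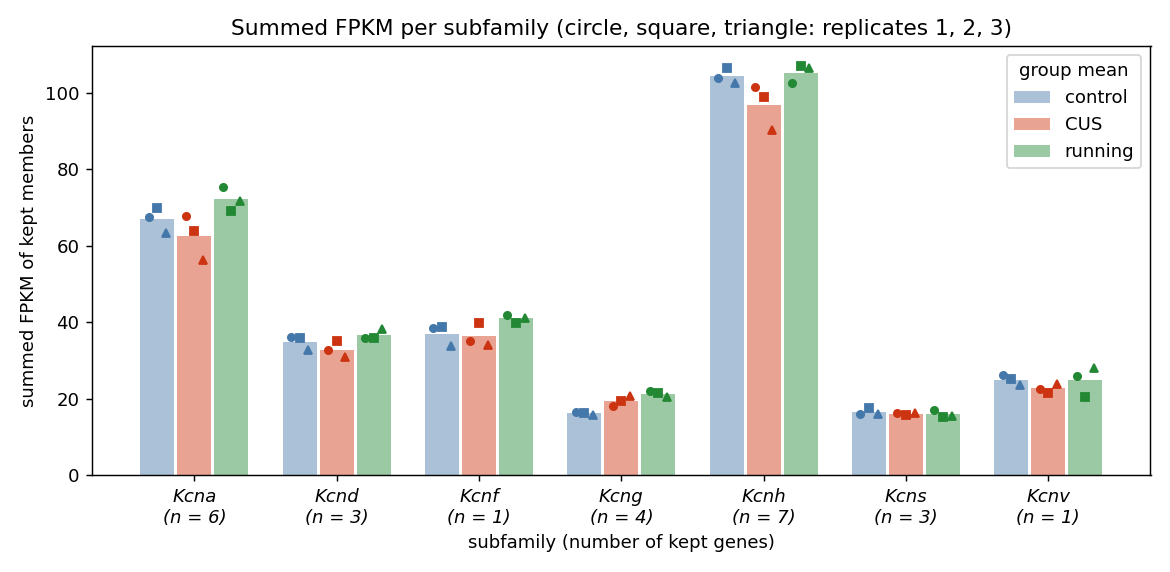
Summed FPKM of the kept genes of 7 subfamilies; bars start at 0 and give the group mean, and circles, squares and triangles are replicates 1, 2 and 3. In the Kcng subfamily the control, CUS and running libraries lie at 15.63 to 16.59, 18.12 to 20.63 and 20.50 to 21.89 FPKM.

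In CUS against control, most Kv genes had lower means, and the largest difference above 0 was that of a silent subunit, Kcng1. Of the 36 kept genes 31 had a log2 difference below 0, where 45.5% of all 15250 genes did, and the median was -0.11 against 0.02 over all genes. At an adjusted p under 0.05 (limma with Benjamini-Hochberg adjustment over all kept genes) 0 of 36 were called, as were 0.00656% of all genes. At an unadjusted p under 0.05, 8 Kv genes were lower, with a background of 5.8%, and 1 was higher, with a background of 8.35%. The higher gene was Kcng1, and the lower included Kcna2, Kcnc1, Kcnh1, Kcnh4, Kcnq3 and Kcnq5. The 3 CUS values lay wholly below the 3 control values for 8 genes (background 7.59%), among them those 6 and Kcnh6. They lay wholly above for 1, Kcng1 (background 11.3%). After rescaling the libraries to a common sum (TPM), the backgrounds were 9.66% lower and 3.94% higher, and 9 Kv genes were lower and 1 higher.

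In running against CUS the direction was the other way for most members. Of the 36, 30 had a difference above 0 (42.8% of all genes), with a median of 0.16 against -0.03 over all genes. Again 0 were called at an adjusted p under 0.05 (0.00656% of all genes). At an unadjusted p under 0.05, 15 were higher and 0 lower, with backgrounds of 7.32% and 14.6%. At an adjusted p under 0.1 there were 6, all higher (background 1.46%), among them Kcna1, Kcna2, Kcnh1 and Kcnq3. The running values lay wholly above the CUS values for 11 genes (background 8.65%) and wholly below for 1, Kcng2 (background 15%). After rescaling to TPM the backgrounds at an unadjusted p under 0.05 were 16.5% higher and 6.25% lower, and 18 Kv genes were higher. The CUS libraries enter both of these comparisons, with opposite sign, so that the counts are not independent of each other.

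In running against control the largest difference among the Kv genes was that of Kcng1. Of the 36, 25 were above 0 (43.5% of all genes), with a median of 0.05 against -0.02. At an adjusted p under 0.05, 0 were called (0.0197% of all genes). At an unadjusted p under 0.05 there was 1, Kcng1, higher (background 4.89%), and 0 lower (background 6.37%). The running values lay wholly above the controls for 7 genes (background 9.91%), among them Kcna1, Kcnf1, Kcng1 and Kcng3, and wholly below for 1, Kcnc4 (background 11.7%).

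The pore-forming and silent subunits had different counts. Of 27 pore-forming genes 24 were below 0 in CUS against control (median -0.12), and 25 were above 0 in running against CUS (median 0.17). Of 9 silent genes 7 were below 0 in the first (median -0.02) and 5 above 0 in the second (median 0.06). All 7 Kcnh genes were below 0 in CUS against control and above 0 in running against CUS. Other pore-forming subfamilies had the same pattern in all their kept genes, so it was not particular to Kcnh. The difference between the 2 classes was not tested.

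**Figure D3:**
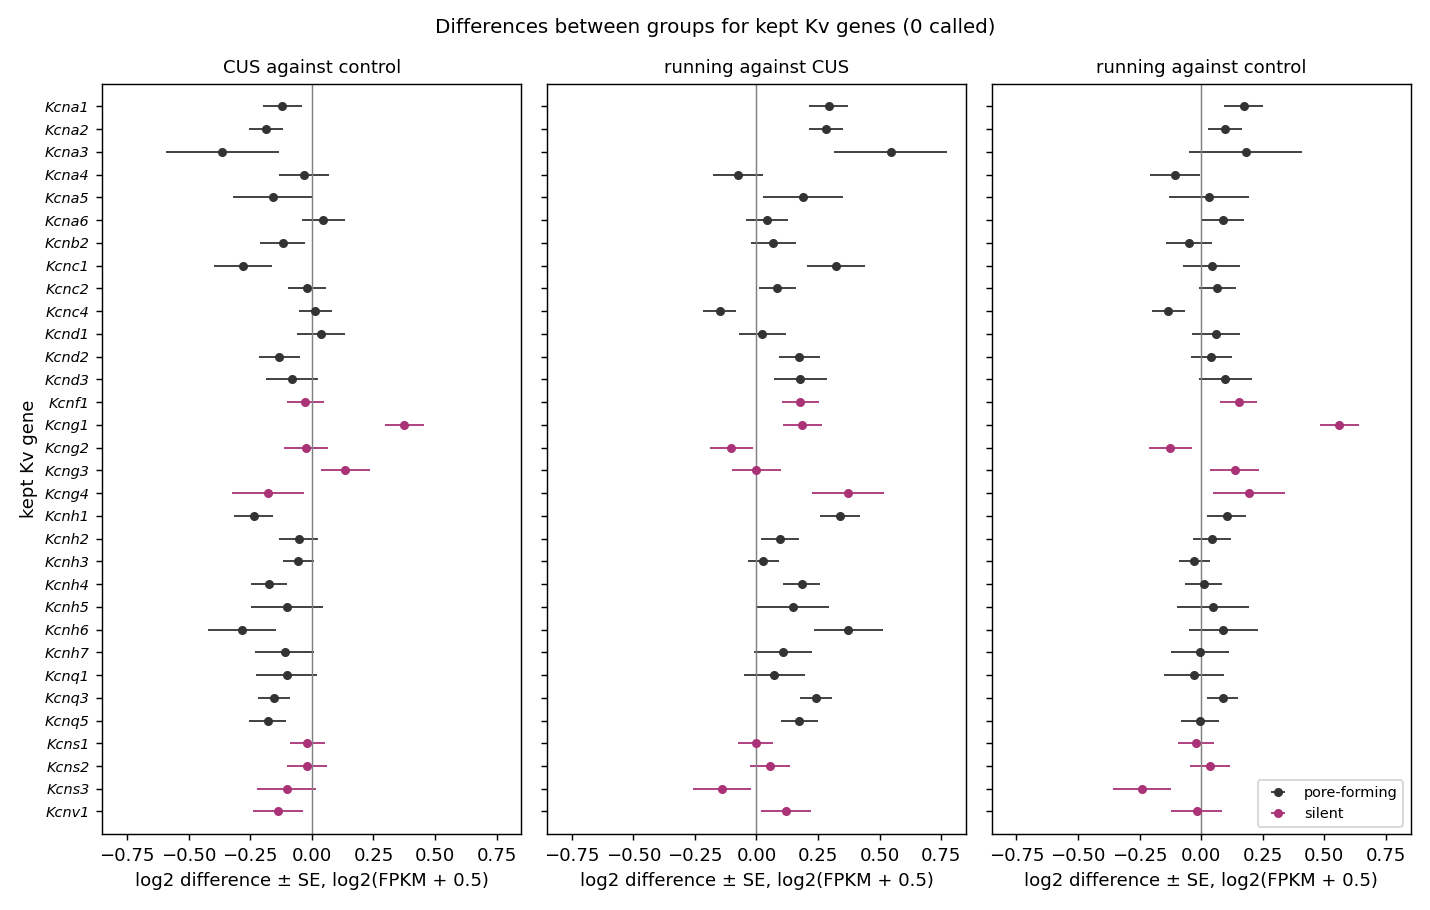
Log2 difference with its standard error for kept Kv genes in the 3 comparisons, on the log2(FPKM + 0.5) scale; black marks pore-forming and purple silent subunits. Kcng1 lies at 0.38, 0.19 and 0.56, above the other silent genes in the first and last panels.

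CUS replicate 3 carried part of the first comparison. Without it the median over the 36 was -0.06 in CUS against control, and 2 genes were lower and 1 higher at an unadjusted p under 0.05 (backgrounds 4.31% and 5.45%). These counts were also 2 and 1 without control replicate 1 (backgrounds 4.26% and 4.46%) and without control replicate 2 (backgrounds 4.68% and 5.65%). Without CUS replicate 3 the median in running against CUS was 0.13, and without running replicate 3 it was 0.11, the lowest with a library left out. Members had longer transcripts than the rest, with a median of 4589 bases against 3368 over the 14882 genes with a length. With the trend of the log2 values along length removed from each library, the medians were -0.07 in CUS against control and 0.12 in running against CUS. At an unadjusted p under 0.05, 3 were then lower and 1 higher in the first (backgrounds 6.57% and 5.93%), and 11 were higher in the second (background 7.27%).

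Among the silent subunits, Kcng1 (chromosome 2, 168260117 to 168281533, GRCm38.p6) encodes a subunit that joins channels of the Kcnb subfamily and shifts their gating. Its level was 10.51, 9.88 and 9.09 FPKM in the controls, 11.79, 12.82 and 14.11 in CUS, and 15.19, 15.00 and 13.99 in running. The controls were the lowest 3 of the 9 and did not overlap either other group, while CUS replicate 3 (14.11) lay above running replicate 3 (13.99). The means were 9.83 ± 0.712, 12.9 ± 1.16 and 14.7 ± 0.645 FPKM (SD, n = 3 each). The log2 difference was 0.38 in CUS against control (SE 0.080, limma adjusted p = 0.256) and 0.56 in running against control (SE 0.080, limma adjusted p = 0.0675), with means in a ratio of 1.5. Running against CUS gave 0.19 (SE 0.080, limma adjusted p = 0.205), and 0.29 after rescaling to TPM. Over the other settings tried, the adjusted p (limma) in running against control lay between 0.0203 and 0.309 and the difference between 0.51 and 0.61. It was under 0.05 without CUS replicate 1 (0.0440) and without CUS replicate 3 (0.0344).

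Kcnb2, a pore-forming Shab gene, was at a mean of 2.19 FPKM and had no unadjusted p under 0.05.

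Kcnf1 (chromosome 12, 17172100 to 17176888), the most abundant silent subunit, had 38.44, 38.68 and 33.64 FPKM in the controls, 35.11, 39.70 and 33.97 in CUS and 41.95, 39.85 and 41.22 in running. The running values were the highest 3, just above CUS replicate 2. The difference in running against CUS was 0.18 (SE 0.074, limma adjusted p = 0.194), and 0.28 after rescaling to TPM. Kcnv1, a silent subunit of the brain, had 26.22, 25.18 and 23.61 FPKM, then 22.59, 21.58 and 23.87, then 25.99, 20.48 and 28.14. Its groups overlapped in each comparison. Kcns1, a silent subunit linked to pain sensitivity, had 6.74, 6.61 and 6.53, then 6.68, 6.56 and 6.38, then 7.12, 6.20 and 6.29 FPKM, with all 3 means between 6.54 and 6.63.

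The remaining silent genes were low. Kcns2 had group means of 6.32, 6.23 and 6.49 FPKM in control, CUS and running. Kcng3 lay between 2.36 and 2.98 FPKM, and Kcns3 had group means of 3.61, 3.31 and 2.97. Kcng4 lay between 0.47 and 1.23 FPKM, at a difference of 0.37 in running against CUS (limma adjusted p = 0.177), and at 0.24 without CUS replicate 3. Kcng2 had means of 3.12, 3.05 and 2.81 FPKM in control, CUS and running. Its running values lay below the CUS values, with a difference of -0.10 (limma adjusted p = 0.529).

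**Figure D4:**
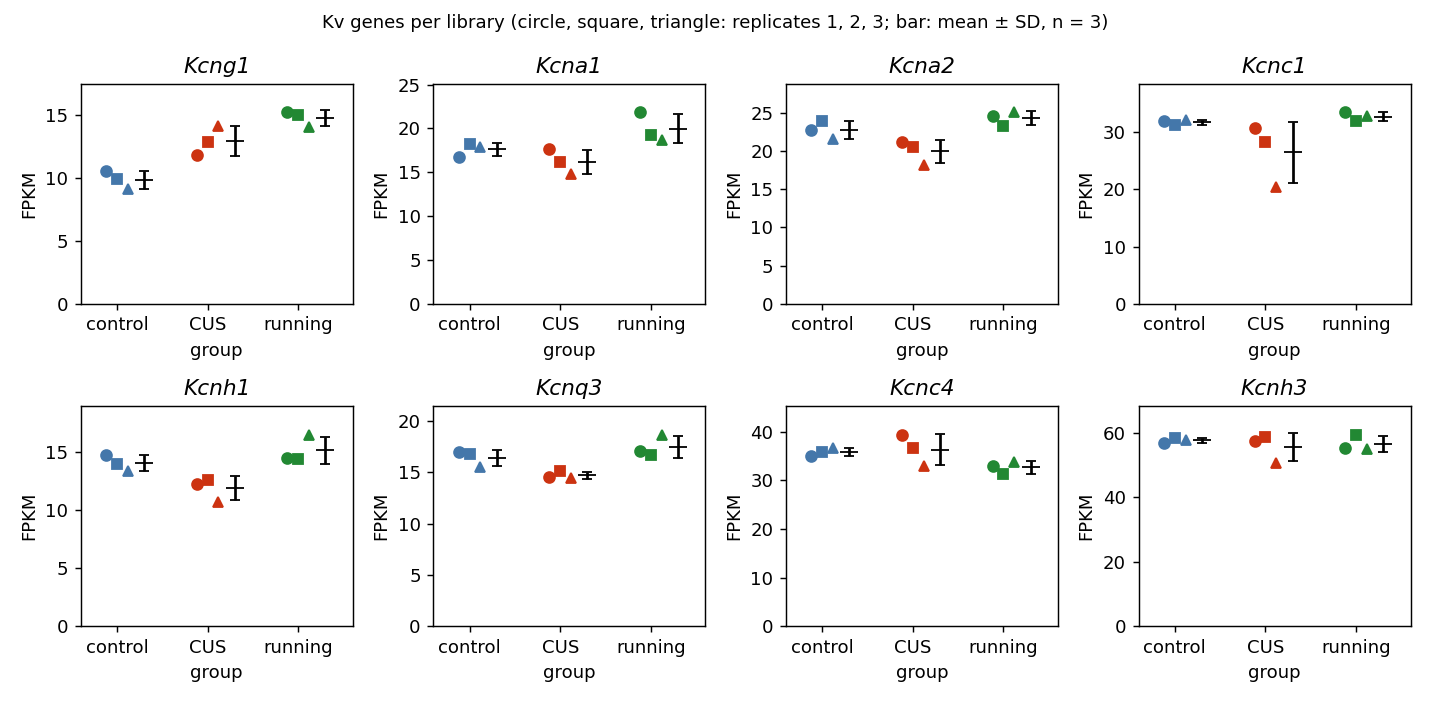
FPKM per library of 8 Kv genes, with circles, squares and triangles for replicates 1, 2 and 3 and the bar for the mean ± SD (n = 3); each y axis starts at 0. Kcng1 is lowest in the 3 controls, Kcna1, Kcna2, Kcnh1 and Kcnq3 are lower in CUS than in running without overlap, and Kcnh3 overlaps throughout.

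Of the axonal Shaker genes, Kcna2 (chromosome 3, 107090883 to 107115005) had 22.67, 23.88 and 21.53 FPKM in the controls, 21.13, 20.44 and 18.18 in CUS, and 24.51, 23.30 and 25.03 in running. The CUS values lay below all others. The difference was -0.19 in CUS against control (SE 0.069, limma adjusted p = 0.307) and 0.28 in running against CUS (SE 0.069, limma adjusted p = 0.0903). With the length trend removed these were -0.08 and 0.14, and without CUS replicate 3 the first was -0.12.

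Kcna1, which joins Kcna2 at axons and whose loss causes seizures in mice, had 16.75, 18.25 and 17.86 FPKM in the controls, 17.62, 16.16 and 14.81 in CUS and 21.84, 19.31 and 18.72 in running. The running values were the highest 3, and CUS and control overlapped. The difference in running against CUS was 0.29 (SE 0.080, limma adjusted p = 0.0987). Kcna3, best known from T cells, was low, at 2.06, 2.08 and 1.19 FPKM, then 1.54, 1.64 and 0.70, then 2.15, 1.71 and 2.28. Replicate 3 was the lowest of both controls and CUS. Its difference of 0.55 in running against CUS (SE 0.229, limma adjusted p = 0.199) was 0.28 without CUS replicate 3.

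Kcna4, Kcna5 and Kcna6 had no unadjusted p under 0.05 in any comparison. Kcna6 was the second Shaker gene by level, with group means of 19.6, 20.3 and 20.8 FPKM for control, CUS and running. The Shaker genes lie in clusters. On chromosome 3 Kcna3, Kcna2 and Kcna10 follow each other at gaps of 52.8 and 68.1 kb, with Kcnc4 another 243 kb on. On chromosome 6 Kcna5, Kcna1 and Kcna6 lie at gaps of 101 and 62.5 kb. Neighbours differed in level: Kcna2 was at 22.3 FPKM on average and Kcna3 at 1.71, and of the chromosome 6 genes only Kcna1 had an unadjusted p under 0.05.

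Of the fast-spiking Shaw genes, Kcnc1 (chromosome 7, 46396219 to 46438706), abundant in parvalbumin interneurons, had 31.85, 31.24 and 32.07 FPKM in the controls, 30.65, 28.19 and 20.43 in CUS, and 33.43, 31.90 and 32.73 in running. CUS replicate 3 was far below the rest. The difference in CUS against control was -0.28 (SE 0.117, limma adjusted p = 0.335), and -0.11 without that library. In running against CUS it was 0.32 (limma adjusted p = 0.153), and 0.15 without it. Pvalb itself had 75.79, 33.95 and 44.21 FPKM in controls, 35.68, 27.42 and 32.63 in CUS and 42.75, 31.84 and 35.19 in running, with CUS replicate 2 lowest. Gad1 (76.61 FPKM), Gad2 (24.72) and Slc32a1 (25.99), markers of all inhibitory neurons, were at their lowest of the 9 libraries in CUS replicate 3. In that library Sst (652.58 FPKM), Vip (54.25) and the sum of the 7 inhibitory markers (874.74) were at their highest of the 9. Pvalb (32.63) and Lhx6 (7.96) were at neither end there. The part of these markers in the Kcnc1 values was not tested.

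Kcnc4, the subunit with a fast inactivating current and the most abundant Shaw gene, went against the others. Its values were 35.00, 35.91 and 36.70 FPKM in the controls, 39.39, 36.57 and 33.04 in CUS and 33.01, 31.23 and 33.75 in running. The running values lay below the controls, with a difference of -0.13 (SE 0.067, limma adjusted p = 0.487). In running against CUS it was -0.15 (limma adjusted p = 0.228). Kcnc2 had group means of 19.8, 19.5 and 20.7 FPKM and no unadjusted p under 0.05.

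The Shal genes of the dendritic transient current had no unadjusted p under 0.05. Kcnd3, the highest, had 16.07, 16.59 and 14.87 FPKM in the controls, 12.79, 17.90 and 14.58 in CUS and 15.73, 17.32 and 17.99 in running. CUS held both the lowest and nearly the highest value. Kcnd2 had group means of 16.1, 14.7 and 16.6 FPKM and Kcnd1 of 2.97, 3.06 and 3.12.

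Of the M current genes, Kcnq3 (chromosome 15, 65986374 to 66286636) had 16.98, 16.77 and 15.51 FPKM in the controls, 14.57, 15.09 and 14.45 in CUS, and 17.13, 16.68 and 18.67 in running. The CUS values were the lowest 3. Its difference was -0.15 in CUS against control (SE 0.063, limma adjusted p = 0.328) and 0.24 in running against CUS (SE 0.063, limma adjusted p = 0.0958). With the length trend removed these were -0.04 and 0.09.

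Kcnq5, another M current subunit of cortex, had 21.75, 22.45 and 21.49 FPKM in the controls, 21.25, 18.98 and 17.76 in CUS and 21.66, 20.31 and 23.58 in running. The CUS values lay below the controls, closely so for CUS replicate 1, and overlapped running. The difference was -0.18 in CUS against control (limma adjusted p = 0.335), and -0.12 with the length trend removed. In running against CUS it was 0.17 (limma adjusted p = 0.214), and 0.08 with the length trend removed.

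In the ether-a-go-go subfamily, Kcnh1 (chromosome 1, 192189144 to 192510159) had 14.75, 14.01 and 13.42 FPKM in the controls, 12.30, 12.64 and 10.72 in CUS, and 14.52, 14.45 and 16.51 in running. The CUS values were the lowest 3, while control and running overlapped. The difference was -0.24 in CUS against control (SE 0.080, limma adjusted p = 0.282) and 0.34 in running against CUS (SE 0.080, limma adjusted p = 0.0853). Without CUS replicate 3 they were -0.17 and 0.27. Kcnh4 had 6.97, 7.07 and 7.31 FPKM, then 6.83, 6.17 and 5.80, then 6.92, 7.37 and 7.22, with CUS again the lowest 3. Its differences were -0.17 (limma adjusted p = 0.335) and 0.18 (limma adjusted p = 0.183).

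Kcnh3 (chromosome 15, 99224517 to 99242818), the most abundant of the subfamily, had 56.65, 58.39 and 57.72 FPKM in the controls, 57.47, 58.52 and 50.59 in CUS and 55.37, 59.33 and 54.93 in running. The groups overlapped, and the differences were -0.05, 0.03 and -0.03 for CUS against control, running against CUS and running against control. Kcnh6 had group means of 6.55, 5.26 and 7.06 FPKM. Its CUS values lay below all controls, at a difference of -0.28 (SE 0.140, limma adjusted p = 0.373), and at -0.18 without control replicate 2. In running against CUS its difference was 0.37 (SE 0.140, limma adjusted p = 0.160), at an unadjusted p under 0.05 and with values that overlapped. Kcnh2, Kcnh5 and Kcnh7 had no unadjusted p under 0.05.

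Windows of up to 250 bases were read from the start of RefSeq promoter entries (GRCm38.p6), which gave 27 windows for 22 of the 36 kept genes. The member windows had a median GC content of 62.8%, against 52.4% over 32851 windows of all genes. The GC box GGGCGG, searched on both strands, was in 16 of 27 member windows (59.3%) and in 32.7% of all windows. TGACG, the first part of the cyclic AMP response element, was in 5 (18.5%) and in 17.8%, and the whole element TGACGTCA in 0 and in 1.55%. The AP-1 site TGANTCA was in 0 (6.75% of all), TATAAA in 0 (12.4%) and CANNTG in 17, or 63% (66.2%). A match is only a match of letters. The windows of 2 members with lower CUS values are shown, with GGGCGG and TGACG of either strand in capitals: Kcnc1 at chr7:46396218-46396467 and Kcnh1 at chr1:192190527-192190773, both on the plus strand, the latter without its annotated exon.

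Kcnc1: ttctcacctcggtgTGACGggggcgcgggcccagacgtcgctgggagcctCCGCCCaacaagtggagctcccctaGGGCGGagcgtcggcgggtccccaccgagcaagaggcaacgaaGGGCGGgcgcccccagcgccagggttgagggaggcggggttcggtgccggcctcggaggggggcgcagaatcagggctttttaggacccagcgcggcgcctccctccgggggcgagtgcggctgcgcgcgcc
Kcnh1: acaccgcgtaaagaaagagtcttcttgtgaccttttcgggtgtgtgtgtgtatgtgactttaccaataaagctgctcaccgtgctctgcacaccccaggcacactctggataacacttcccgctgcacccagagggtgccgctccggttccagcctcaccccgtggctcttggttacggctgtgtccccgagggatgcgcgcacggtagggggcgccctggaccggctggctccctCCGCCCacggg

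The Kcnc1 window held 3 GC boxes and 1 partial response element, and 74.4% of its bases were G or C. The Kcnh1 window held 1 GC box, at 61.9%. By the gene positions given above, the Kcnh1 window and nearly all of the Kcnc1 window lie inside the gene, not before its start.

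Other channel genes and the proteins that accompany Kv subunits were counted by list, and 0 of any list were called in any comparison. Of 14 auxiliary subunits (Kcnab, Kcnip, Kcne and Dpp genes and Amigo1), 8 were below 0 in CUS against control and 7 above 0 in running against CUS, with medians of -0.04 and 0.01. Kcnab1, a cytoplasmic subunit that speeds inactivation of Shaker channels, was on average 29.4, 33.9 and 28.6 FPKM in control, CUS and running. Its difference was 0.20 in CUS against control (limma adjusted p = 0.309) and -0.24 in running against CUS (limma adjusted p = 0.119). Both go against the direction of most Kv genes. Kcne4 was low, with means of 0.613, 0.377 and 0.763 FPKM. Its difference was -0.33 in CUS against control (limma adjusted p = 0.344) and 0.52 in running against CUS (limma adjusted p = 0.09997). Of 11 genes of Kv anchoring, 8 were below 0 and then 9 above 0. Ank3, the scaffold of the axon initial segment that holds M current channels, had 30.63, 30.74 and 29.78 FPKM in the controls, 26.30, 27.58 and 26.33 in CUS and 29.16, 29.83 and 31.37 in running. Its CUS values were the lowest 3, with a difference of -0.18 (SE 0.052, limma adjusted p = 0.275).

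Of the other potassium channels, 10 of 12 inward rectifiers and 10 of 11 two-pore channels were below 0 in CUS against control, with medians of -0.11 and -0.14. In running against CUS, 6 and 8 were above 0, with medians of 0.05 and 0.11. Kcnj6, an inward rectifier opened by G proteins, was at 11.5, 9.99 and 14.3 FPKM, a difference of 0.51 in running against CUS (limma adjusted p = 0.0845). Of 8 calcium channel alpha1 genes, 7 were below 0 and then 8 above 0, with medians of -0.13 and 0.15, close to those of the Kv genes. Of 9 sodium channel genes these counts were 6 and 7, with medians of -0.09 and 0.07. The 10 calcium- or sodium-activated potassium channel genes had medians of -0.04 and 0.02, and the 4 HCN genes of -0.08 and 0.05. The genes of these lists with an unadjusted p under 0.05 in a comparison whose groups did not overlap were, beside those given above, Cntn2, Kcnj12, Kcnk4, Kcnk7, Kcnk9, Kcnk10, Kcnma1, Kcnmb4, Scn8a, Hcn3, Hcn4, Cacna1a, Cacna1c and Cacna1i. These names pool the 3 comparisons and both directions. Kcnk7 lay near 0, with means of 0.207, 0.0533 and 0.31 FPKM in control, CUS and running. Cacna1a, the pore of the P/Q calcium current, was at 27.0, 23.5 and 26.7 FPKM in control, CUS and running, a difference of -0.20 in CUS against control (limma adjusted p = 0.282).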

How the data were processed

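Polyadenylated RNA was made into libraries without strand marking, per the labels' protocols. The authors deposited FPKM values with 2 decimals. Bowtie2 2.2.5, RSEM 1.2.12, DESeq2 1.4.5 and mm10 are named in the submitters' processing notes, without roles. Read depth could not be read from these values, so no counting interval is given. Of 65389 rows, 30264 had no gene symbol and were at 0. Values were analysed as log2(FPKM + 0.5) with limma 3.58.1 in R 4.3.3 (intensity trend, 6 residual degrees of freedom), all 9 libraries in 1 model and Benjamini-Hochberg adjustment over 15250 genes. Fold changes on that scale understate low genes. An exact test of 3 against 3 cannot go under 0.1. The code was tested on simulated data. Per-library values are given for the highest gene of each subfamily, for members with an unadjusted p under 0.05 and no overlap, and for Kcng1; of other lists, such genes are named. Members and lists were chosen with earlier results of these data known. Alternatives were pseudocount, filter, scaling, variance model, weights, length trend and leaving out each library. Coding sequences come from the annotation of GRCm38. Counts cover all 36 kept members, and some of them are not reported here by name.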

Additional observations from a re-analysis of the deposited data

How the results depend on the processing

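In CUS against control 0 Kv genes were called under each setting tried, and leaving out each library in turn gave 0 to 0. In running against CUS, 8 were called with library quality weights, where 1660 of all genes were (7 of the 8 higher, and Kcnc4 lower), and leaving out each library gave 0 to 6; the 6, without CUS replicate 2, included Kcna2, Kcnh1 and Kcnq3, and 1367 of all genes were called then. In running against control, 1 gene, Kcng1, was called after rescaling to TPM (4 of all genes), with weights (85), with only the 2 groups compared (22), and without CUS replicate 1 (10) or CUS replicate 3 (7), so that leaving out each library gave 0 to 1. The median difference was -0.19 after rescaling to TPM in CUS against control, where the median of all genes was -0.04, and 0.28 in running against CUS, where that of all genes was 0.06. Leaving out each library gave medians from -0.13 to -0.06, from 0.11 to 0.17 and from 0.02 to 0.09 in the 3 comparisons; in running against control the lowest was without control replicate 3 and the highest without running replicate 2, and it was 0.07 without control replicate 1 or 2. Removing a trend in length and GC content, an alternative chosen after seeing the data, gave -0.07, 0.11 and 0.04. For running against CUS, an unadjusted p under 0.05 was reached by 9 higher and 0 lower members without running replicate 1 (6.71% and 14.2% of all genes), and by 9 higher and 1 lower without CUS replicate 3 (5.93% and 11.5%). Of the 35 gene differences with an unadjusted p under 0.05 or with no overlap, none changed sign under any setting. Much of this was fixed in advance. Groups that do not overlap cannot change sign when a library is left out. Changing only the filter or the variance model leaves the difference itself as it was. The differences were also picked in these same data, so the unchanged signs are no test of them. Moves by over 1.5 times numbered 10 with the length trend removed, 11 with the length and GC trend removed, 7 after rescaling to TPM, 6 with library quality weights and 13 with a library left out. The cause of these shifts was not tested. No paired analysis was possible because replicate numbers follow the order of listing and pair no libraries.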
